A study of Myzus persicae with 16 samples.

Results

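The direct comparison of habituated with non-habituated aphids, both exposed to their alarm pheromone, was made on 4 of the 16 arrays of the series. These were all the arrays titled as Col-0+EBF against EBFS+EBF, and each carried RNA of both kinds of aphid in different dyes. The non-habituated aphids, labelled WT, were Myzus persicae of a red tobacco adapted strain kept on Col-0, the wild type of Arabidopsis thaliana. The habituated aphids were of the same strain kept on 35S:EBFS plants, in which a constitutive viral promoter drives a synthase for the pheromone. Both were reared this way for 6 months or longer, under 16 h of day and 8 h of night. Pools of 50 aphids from each received 1 µg of the pheromone in hexane for 30 min before whole-animal RNA was taken. The other 12 arrays brought in aphids of both rearings treated with hexane alone. They set the rearings against each other in hexane (4 arrays) and set the pheromone against hexane within each rearing (4 arrays each). Age, morph and sex of the aphids are not in the labels. Whole pools were extracted, so a change in the make-up of the pool and a change in RNA per cell cannot be told apart. Nothing in the labels ties an array to its RNA extract, and the p-values given here stand for differences among arrays that may be partly technical.

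The pheromone is (E)-beta-farnesene, EBF, a sesquiterpene that aphids release from their cornicles when attacked. Neighbouring aphids smell it with their antennae, stop feeding and walk or drop away. Habituation is the waning of a response to a stimulus that keeps returning without consequence, and plants that give off EBF all the time provide such a stimulus. The comparison asks how gene expression of aphids with this history differs from that of naive aphids when both meet EBF. The 14628 probes carry 10489 identifiers, which are contig names for 14434 probes and names of another kind for 194, and 0 of them matched a RefSeq gene of this species. Roles of single transcripts therefore cannot be given, and 2 identifiers in each direction are described by name.

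Array 1 and array 3 carried the habituated aphids in the red dye, AF647, and array 2 and array 4 carried them in the green dye, AF555. All 4 lay on slide 1, together with the 4 arrays of non-habituated aphids with EBF over hexane. Median raw signals of all 14628 probes, of which 12780 were tested, were 1480 to 2213 units in habituated and 1464 to 2823 units in non-habituated aphids. The share of probes well above background ranged from 68.9% to 75.9% in habituated and from 68.4% to 76.3% in non-habituated aphids. No spot of these arrays was saturated. The 2 probes of a name gave correlated ratios on each array, with r of 0.88 to 0.91 across probes.

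RNA spike-ins, synthetic transcripts mixed at set ratios between the dyes, differed between these arrays. On arrays 1, 2 and 4 the slope of observed on expected log2 ratio, computed by the scanner software, was 1.09, 1.09 and 1.02. On array 3 the slope was 0.499. The other 15 arrays of the series ranged from 0.897 to 1.09, so the spike-in ratios of array 3 lay on a narrower scale than those of any other array. The 10 spike-in probes spanned 3.70 log2 units on array 3 against 5.29 to 6.61 on the other 15. Their order also held less well there. The scanner's r of observed with expected ratio was 0.875 on array 3 against 0.95 to 0.999 on the other 15. For 1 spike-in probe the log2 ratio was 0.73 on array 3 but -1.05, -1.27 and -1.83 on arrays 1, 2 and 4. Because the spike-in mixes followed the dye on all arrays, they do not show which aphids were in which dye. Whether the narrower scale or the weaker order also holds for aphid transcripts was not tested.

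**Figure D1:**
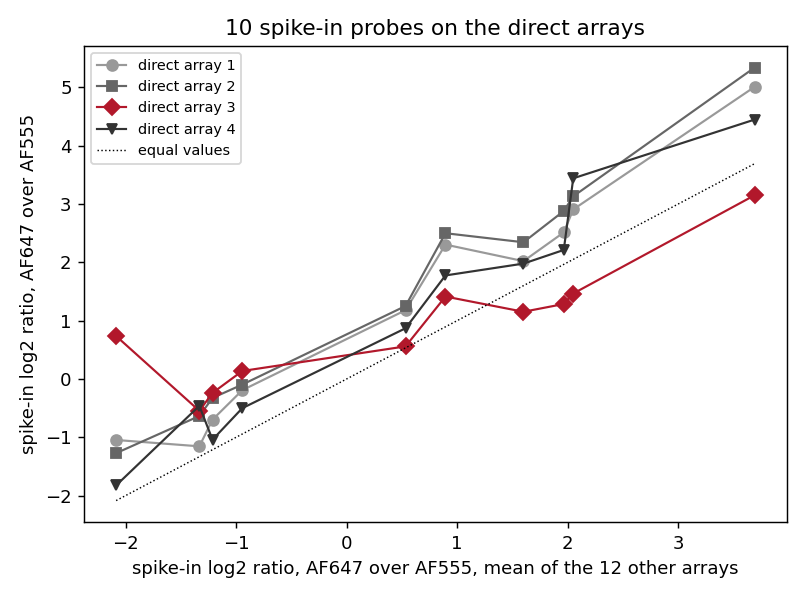
Log2 ratio (AF647 over AF555) of each of the 10 spike-in probes on the 4 direct arrays (vertical axis, log2 units) against its mean over the 12 other arrays (horizontal axis, log2 units). The dotted line marks equal values, and array 3 spans 3.70 units where arrays 1, 2 and 4 span 6.17, 6.61 and 6.27.

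The 4 arrays differed in how far habituated and non-habituated aphids stood apart. All signed values are habituated over non-habituated by the dyes in the labels. This is opposite to the reading of the column name in the authors' deposited table. That column's values nevertheless run the same way (r = 0.9999 with the mean of the turned ratios). If the column name were right and the dyes in the labels wrong, higher and lower would be exchanged on these 4 arrays. With them turned, a fit together with the other arrays called 0 probes at a limma adjusted p under 0.05. All probes named below then took the opposite sign. Which of the 2 readings is right was not tested. The SD of the log2 ratio over probes was 0.47 on array 1, 0.66 on array 2, 0.50 on array 3 and 0.85 on array 4. Array 4 had 611 probes more than 2-fold higher and 1448 more than 2-fold lower in habituated aphids. Array 1 had 265 higher and 143 lower. Arrays 2 and 3 lay between them in the lower direction, with 814 and 381 probes, and had 549 and 280 probes higher.

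**Figure D2:**
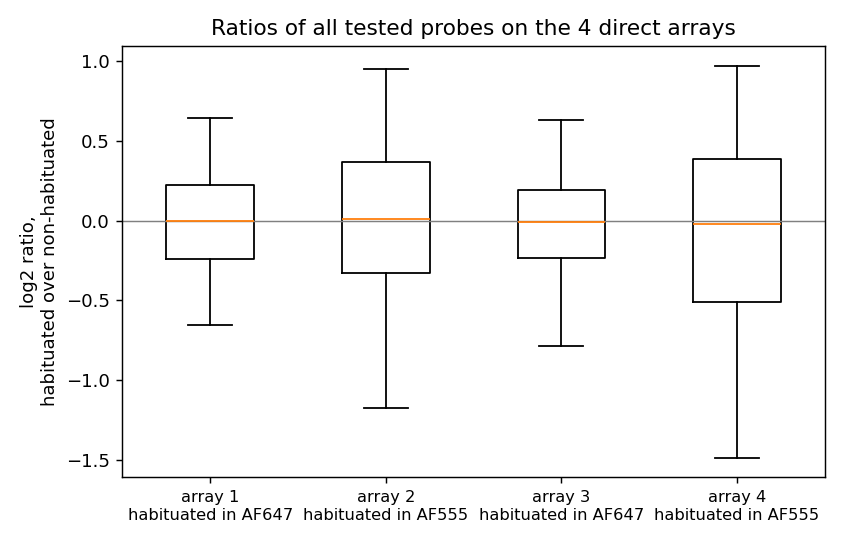
Log2 ratio of habituated over non-habituated aphids with EBF (vertical axis) for the tested probes on each of the 4 direct arrays. Boxes give the quartiles with the median as a line, whiskers the 5th and 95th percentiles, and the widest spread is that of array 4 (SD 0.85).

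Array 4 also ranked the probes unlike the other 3. Across probes its turned ratios correlated at r = -0.31 with array 1, -0.10 with array 2 and 0.15 with array 3. Arrays 1, 2 and 3 correlated with each other at 0.24 (1 and 2), 0.47 (1 and 3) and 0.41 (2 and 3). Array 2 and array 4 had the same dye orientation, so their value of -0.10 holds with no turning of either. These are descriptions across probes that share arrays and slide, and probes are not replicates. Control probes with aphid identifiers, 12 in all and each printed in 10 spots, put a scale on this spread. Their SD between spots of an array was 0.0344 to 0.296 log2 units (median 0.107). Their SD between the 4 arrays, which also holds differences between hybridizations and extracts, was 0.196 to 1.07 (median 0.505).

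Of 12736 probes with a value on all 4 direct arrays, 2146 (16.8%) had the same sign on all 4. They were divided into 984 (7.73%) higher and 1162 (9.12%) lower in habituated aphids. On arrays 1, 2 and 3 alone, 49.4% of probes had 1 sign, so array 4 held the sign opposite to the other 3 for most of them. Fewer signs have to match on 3 arrays than on 4, and the shares that unrelated ratios would give were not computed. A size of at least 0.5 log2 units with 1 sign on all 4 arrays was reached by 153 probes (1.2%). Of these, 32 (0.251%) were higher and 121 (0.95%) lower in habituated aphids. At a size of at least 1 log2 unit (0.0393% of probes), 1 probe was higher (0.00785%) and 4 were lower (0.0314%).

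The joint fit of all 16 arrays estimates the same comparison from the direct arrays and from the path through the 3 other array groups. In it 658 of 12780 probes (5.15%) differed between habituated and non-habituated aphids with EBF at a limma adjusted p under 0.05. The 370 probes higher in habituated aphids (2.9%) had a median difference of 0.39 log2 units, and the 288 lower (2.25%) one of -0.60. Over 2-fold, the lower probes were the more numerous, 59 against 13. The higher probes had median ratios of 0.29, 0.43, 0.40 and 0.40 on direct arrays 1 to 4, and the lower probes -0.36, -0.57, -0.67 and -0.61. These arrays take part in the fit that made the lists, so medians of the called sign follow in part from the selection. Of the 658 probes, 518 (78.7%) had 1 sign on all 4 direct arrays, 292 higher and 226 lower. For 0 of the 658 was the direct mean of the sign opposite to the fit, for the same reason. Among 3834 identifiers with 2 tested probes, 246 had a call on either probe and 137 had both probes called in the same direction.

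The hexane-treated aphids allow the path through the 12 other arrays to be given step by step. For the 370 higher probes, the 12 other arrays gave a median habituated minus non-habituated difference with EBF of 0.47. It was made of 0.35 from a lower level with EBF than with hexane in non-habituated aphids, 0.12 from EBF over hexane in habituated aphids and -0.0011 from rearing in hexane. For the 288 lower probes the median was -0.40, with -0.43, -0.036 and -0.0068 from the same 3 steps. In both lists the median of the first step was the largest in size of the 3. That step is the one measured on slide 1, and the other 2 were measured on slide 2, so step and slide cannot be told apart, and a median near 0 can hold members of both signs. The first step shares the exposed non-habituated aphids with the direct arrays and enters the joint fit, so its size gives no separate support for the calls.

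The count rested strongly on direct array 3. Without it 50 probes were called, 29 higher and 21 lower, while 606, 435 and 708 were called without array 1, 2 and 4, and 349 without array 1 of EBF over hexane in habituated aphids. Array 3 is the array with the narrow scale and weaker order of the spike-ins, and the part of either in the count was not tested. With arrays of 1 number on slide 1 treated as a block, the joint fit called 257 probes.

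**Figure D3:**
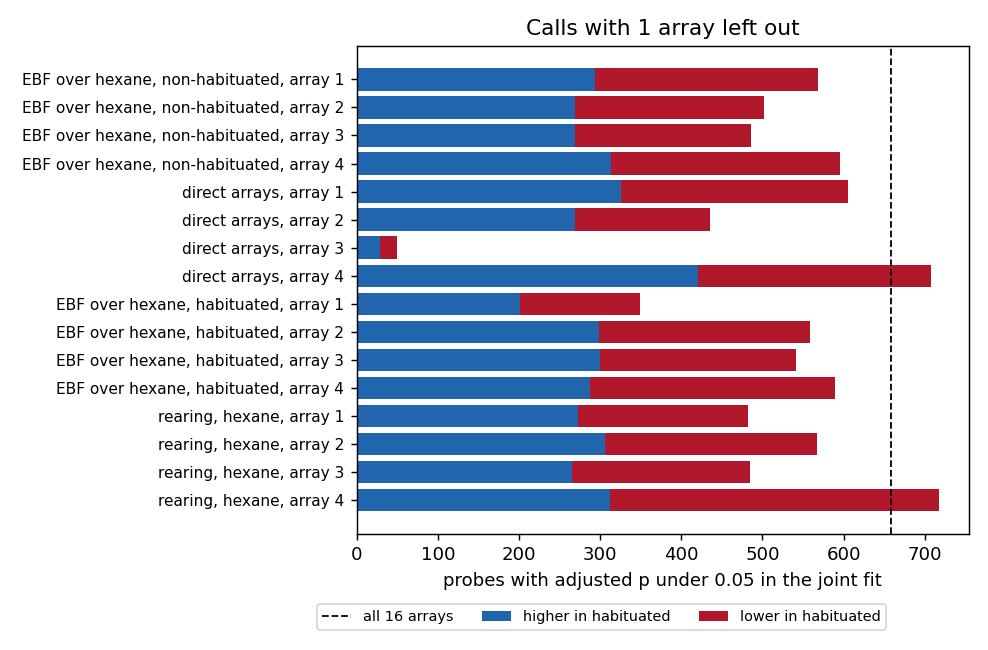
Number of probes at a limma adjusted p under 0.05 in the joint fit (horizontal axis) with each of the 16 arrays left out (vertical axis), split into higher (blue) and lower (red) in habituated aphids. The dashed line marks the 658 probes called with all arrays, and the shortest bar is direct array 3 with 50.

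The identifiers contig438 and contig4095 are the highest-ranked of those higher in habituated aphids, and contig3601 and contig190 of those lower. The rank used the smallest size of the ratio over the 4 arrays and both probes, among 72 identifiers (34 higher, 38 lower) whose probes both passed the joint fit, had 1 sign on all direct arrays and were well measured in both channels. Their even or large ratios on the direct arrays therefore follow from how they were chosen, and so in part do gaps between their signals. The signals given are background-subtracted but not normalized between dyes or arrays, so whether their ranges overlap is a description only.

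The first probe of contig438 had log2 ratios of 0.74, 0.50, 0.72 and 0.60 on arrays 1 to 4, and its second probe 0.58, 0.77, 0.59 and 0.73. The 4 arrays lay close together for this transcript, with no array near 0. Its background-subtracted signal at the first probe was higher in habituated aphids within each array, with 12071.5 against 8169.5 units on array 1, 7710.5 against 6663.5 on array 2, 14040 against 7594 on array 3 and 11441 against 10254 on array 4. Across arrays the signals of the 2 kinds of aphid overlapped. The mean ratios were 0.64 ± 0.11 and 0.66 ± 0.096 (SD, n = 4). In the joint fit the differences were 0.65 ± 0.14 and 0.67 ± 0.13 (SE), 1.57-fold and 1.60-fold, at limma adjusted p of 0.0223 and 0.0161. The 12 other arrays gave 0.67 ± 0.33 and 0.71 ± 0.30 (SE). In the joint fit, contig438 fell with EBF over hexane in non-habituated aphids by 0.75 and 0.71 (limma adjusted p = 0.0183 and 0.0174). Of all tested probes, 6.18% passed this test. In habituated aphids it had values of 0.33 and 0.35 (adjusted p = 0.999 for both), and the rearings differed in hexane by -0.43 and -0.39 (adjusted p = 0.835 for both). The estimated difference between the rearings was thus of opposite sign with EBF and with hexane, but the one in hexane did not pass its test. The rearing difference with EBF minus that in hexane was 1.07 for each probe (limma adjusted p = 0.00679 and 0.00556). This test was passed by 610 of all tested probes (4.77%). It contains the difference with EBF by which the named identifiers were chosen, so for them it is no separate support.

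For contig4095 the first probe had 0.48, 0.61, 0.49 and 0.49 on arrays 1 to 4, and the second 0.48, 0.71, 0.48 and 0.46. Array 2 stood above 3 nearly equal arrays at both probes. In background-subtracted signal, habituated aphids were higher on arrays 1 to 3, with 4029.5 against 3226.5, 2980.5 against 1981 and 4414 against 2838.5 units at the first probe. On array 4 they were slightly lower, 3714.5 against 3800, so there the sign of the ratio came with the loess normalization. The mean ratios were 0.52 ± 0.062 and 0.53 ± 0.12 (SD, n = 4). The joint fit gave 0.57 ± 0.12 and 0.59 ± 0.12 (SE), 1.489-fold and 1.505-fold, at limma adjusted p of 0.0223 and 0.0171. The 12 other arrays gave 0.75 ± 0.28 and 0.76 ± 0.26 (SE). In the joint fit the response of non-habituated aphids was -0.42 and -0.45 (adjusted p = 0.0582 and 0.0396), so that contig4095 passed the test for a fall at its second probe only. The rearing difference with EBF exceeded that in hexane by 0.78 and 0.79 (limma adjusted p = 0.0142 and 0.012).

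The first probe of contig3601 had -0.70, -2.06, -1.80 and -1.35 on arrays 1 to 4, and the second -0.92, -1.89, -1.58 and -1.53. Array 1 held the smallest size at both probes. The signal of the first probe was 701 to 2291 units in habituated aphids and 3216 to 4664 in non-habituated aphids, so the 2 ranges of signal did not overlap. The mean ratios were -1.48 ± 0.59 and -1.48 ± 0.41 (SD, n = 4). The joint fit gave -1.07 ± 0.26 and -1.05 ± 0.27 (SE), 2.09-fold and 2.07-fold lower in habituated aphids, at limma adjusted p of 0.032 and 0.0364. Slide 1 alone also called both probes (adjusted p = 0.0428 for each). The 12 other arrays, however, gave 0.17 ± 0.31 and 0.23 ± 0.37 (SE), near 0 and of the opposite sign. In the joint fit contig3601 rose with EBF in non-habituated aphids by 1.15 and 1.27 (limma adjusted p = 0.0276 and 0.022). In habituated aphids the fitted values were 0.077 and 0.087 (adjusted p = 0.999 for both). These values also draw on the direct arrays. The arrays of EBF over hexane themselves had means of 0.74 and 0.84 in non-habituated aphids and 0.49 and 0.51 in habituated aphids. In habituated aphids the single arrays ran from 0.32 to 0.87 and from 0.25 to 1.08. The test of the difference between the 2 responses passed at the second probe (-1.18, adjusted p = 0.0419) and not at the first (-1.07, adjusted p = 0.0546).

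For contig190 the first probe had -1.51, -0.64, -0.99 and -0.58 on arrays 1 to 4, and the second -1.71, -0.54, -1.002 and -0.60. Here array 1 held the largest size. The signal of the first probe was 1861 to 5307 units in habituated and 5845 to 10739 units in non-habituated aphids, again with no overlap. At the second probe they overlapped, with 580.5 to 2365.5 against 1741 to 5269.5 units. The mean ratios were -0.93 ± 0.43 and -0.96 ± 0.54 (SD, n = 4). The joint fit gave -1.28 ± 0.28 and -1.27 ± 0.26 (SE), 2.43-fold and 2.42-fold lower in habituated aphids, at limma adjusted p of 0.0241 and 0.0175. The 12 other arrays gave -2.32 ± 0.52 and -2.21 ± 0.45 (SE), larger in size than the direct arrays. In the joint fit the single steps did not pass the test for contig190. EBF over hexane in non-habituated aphids was 0.50 and 0.53 (adjusted p = 0.345 and 0.256). In habituated aphids it was -0.25 at both probes (adjusted p = 0.999 for both). Rearing in hexane was -0.53 and -0.49 (adjusted p = 0.835 for both). These fitted values also draw on the direct arrays. The arrays of EBF over hexane themselves had means of 0.85 and 0.84 in non-habituated aphids and -0.59 and -0.56 in habituated aphids. Those of rearing in hexane had -0.88 and -0.81. In the authors' deposited table the log2 values of the first probes of contig438, contig4095, contig3601 and contig190 were 0.641, 0.517, -1.476 and -0.933, with p-values of 0.00196, 0.00403, 0.00183 and 0.0044. Without direct array 3 none of the 8 probes passed the joint fit (limma adjusted p from 0.0535 to 0.148), although the differences were 0.64 and 0.69 for contig438, 0.60 and 0.61 for contig4095, -0.88 and -0.91 for contig3601 and -1.37 for both probes of contig190. Both probes of contig3601 also missed the threshold without direct array 2 (adjusted p = 0.0859 and 0.0937) or 4 (0.0651 and 0.0795), and its second probe without direct array 1 (0.0593) or any of 4 of the other arrays (0.0519 to 0.0555). With the block on slide 1 they had adjusted p of 0.0555 and 0.0615, the first probe of contig438 had 0.05 and that of contig190 0.0608.

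**Figure D4:**
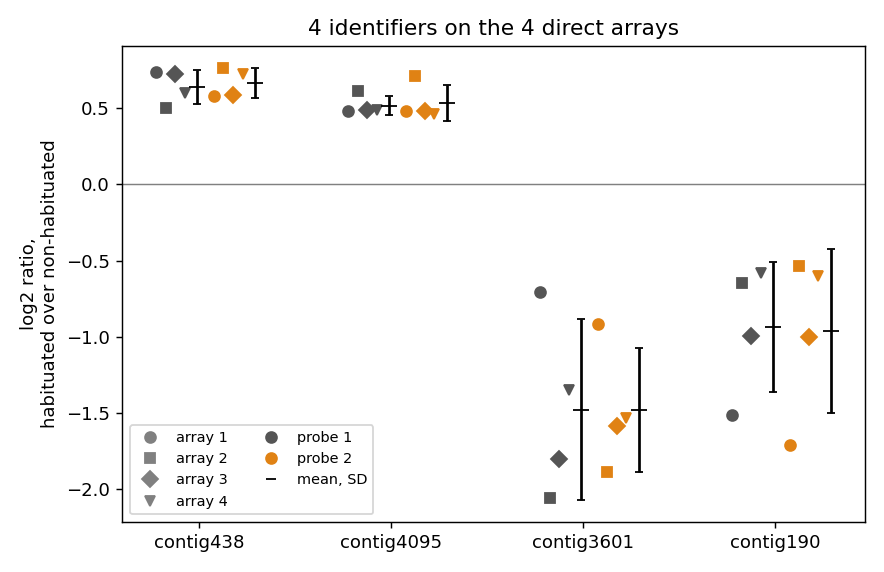
Log2 ratio of habituated over non-habituated aphids with EBF (vertical axis) for both probes of the 4 named identifiers (horizontal axis), with a symbol for each direct array and the mean ± SD (n = 4) beside each set. The contig438 and contig4095 values lie between 0.46 and 0.77, and the contig3601 and contig190 values between -2.06 and -0.54.

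Fitted without slide 2, the comparison was almost all in the lower direction. On slide 1 alone the value is that of the 4 direct arrays and the spread comes from 8 arrays. There 137 probes (1.07%, 109 identifiers) differed at a limma adjusted p under 0.05, of which 8 (0.0626%) were higher and 129 (1.01%) lower in habituated aphids. All 137 had 1 sign on the 4 direct arrays, and 38 of them, 7 higher and 31 lower, were also among the 658 of the joint fit (27.7% of the slide 1 list and 5.78% of the joint list). The 4 direct arrays made this list and also enter the joint fit. The common sign, the overlap and the medians per array therefore follow in part from the selection. The 129 lower probes had median ratios of -0.63, -1.44, -1.08 and -1.05 on arrays 1 to 4. Array 1 again had the smallest size. The 8 higher probes had medians of 0.50, 0.53, 0.57 and 0.73. Of 68 identifiers with 2 tested probes and a slide 1 call, 67 had direct means of 1 sign at both probes and 28 had both probes called. How often direct means had 1 sign among all 3834 identifiers with 2 tested probes was not counted.

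The 12 other arrays gave most of these 129 probes the opposite sign, at a small size. Their median by that route was 0.30 (quartiles 0.095 to 0.45), and 107 of 129 lay above 0, where the median of all tested probes was -0.01. The median SE of a single probe by that route was 0.36, larger than the median value. That value was 0.060 without array 4 of rearing in hexane and 0.092 without array 4 of EBF over hexane in habituated aphids. The 3 steps had medians of -0.66 for non-habituated aphids (hexane over EBF), 0.49 for EBF over hexane in habituated aphids and 0.44 for rearing in hexane. The first step, on slide 1, thus had the sign of the direct arrays, and both steps of slide 2 had the opposite sign. The 31 probes shared with the joint fit had a median of -0.10 by the other route, and the 98 not shared had 0.36, with 96 of 98 above 0. For comparison, the 8 higher probes had 0.72 by the other route, with 7 of 8 above 0. With the direction of both array groups on slide 2 turned against their labels, an alternative that leaves the direct arrays as they are, the median of the 129 was -1.60 by the other route. This follows from the signs of the 3 steps and is no check of the labels. The exposed non-habituated aphids were measured on slide 1 alone, so the comparison has no value within slide 2, and slide cannot be told apart from the steps measured on it.

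**Figure D5:**
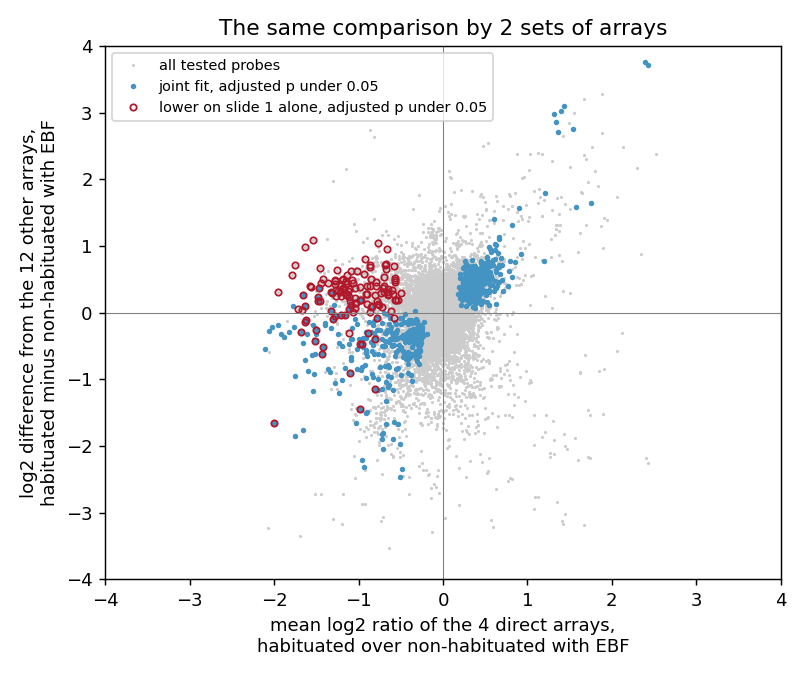
Mean log2 ratio of the 4 direct arrays (horizontal axis) against the same difference computed from the 12 other arrays (vertical axis), habituated over non-habituated with EBF, for all tested probes (grey), the joint calls (blue) and the 129 probes lower on slide 1 alone (red circles). Of the red circles, 107 lie above 0 on the vertical axis, and 9 probes lie outside the plotted range of 4 log2 units in either direction.

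The 129 probes were dim. Their median signal over the 4 direct arrays was 488.1 units against 2714 for all tested probes. Well above background in all 8 channels of the direct arrays were 41 of the 129 (31.8%), against 74.0% of all tested probes. With the tested probes split by signal into 4 equal groups, from dimmest to brightest, the groups held 78, 42, 9 and 0 of the 129. The joint fit's calls were spread over the 4 groups, with 88, 91, 117 and 74 higher and 79, 75, 80 and 54 lower. When the test was limited to the 9453 probes well above background in all 8 channels, slide 1 alone called 0 and the joint fit 555. That filter uses the habituated channels, so a lower level in habituated aphids itself bears on which of the 129 stayed, and the 41 that did were not called there. The slide 1 count also fell to 0 without direct array 2 or 3 or without array 1, 2 or 4 of EBF over hexane in non-habituated aphids, to 1 without direct array 4 and to 39 without array 3 of that same group. The part of low signal in this list was not tested.

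With no other array in the fit, limma called 0 probes (0%) on the 4 direct arrays, and the smallest adjusted p was 0.566. Unadjusted p-values under 0.05 were found for 995 probes, against 2065 on slide 1 and 2907 in the joint fit. A fit without the dye effect also called 0, with 1090 at an unadjusted p under 0.05. Both probes of all 4 named identifiers had a limma adjusted p of 0.566 on the direct arrays with the dye effect. Without it they had 0.386 to 0.388. The authors' deposited table, which holds an unadjusted p-value for each of the 14628 probes, has 1262 (8.63%) under 0.05, of which 425 had a positive and 837 a negative log2 value.

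Some probes were measured in 1 kind of aphid only. On the direct arrays 9453 probes were well above background in all 8 channels and 2642 in 0 of the 8. Of 14628 probes, 32 (31 identifiers) were so in non-habituated aphids on all 4 arrays and in habituated aphids on no array. The reverse was shown by 0 probes. A level at background is only an upper limit, so each difference is a bound. It sets the mean signal of non-habituated aphids against the mean, over arrays, of whichever was higher in habituated aphids: the probe's own signal or the lowest signal well above background. The bounds ran from at least 1.3-fold to at least 2.9-fold lower in habituated aphids (median 1.73). The direct arrays that chose these probes also enter the fits, so it is a description only that 10 of the 32 passed the joint fit (5.15% of all tested probes) and 13 the fit of slide 1 (1.07%). By the 12 other arrays their median difference was 0.16, and 24 of 32 lay above 0, opposite to the bounds. The one-sidedness depended on array 1: without it 53 probes were measured in non-habituated aphids only and 34 in habituated aphids only. On array 1 the habituated aphids had 68.9% of probes well above background against 73.7% for non-habituated aphids. Array 2 had the opposite order, with 74.4% against 68.4%. The part of these shares in the counts was not tested. Without array 2 the numbers were 55 and 0, and without array 4 they were 81 and 3.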

How the data were processed

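Whole aphids were measured on 16 Agilent 2-colour arrays of 15744 spots, 14628 of them aphid probes. Per the file headers, fluorescence intensity per spot and channel was read with Agilent Feature Extraction 10.5.1.1. The authors' deposited table gives a log2 ratio and a p-value per probe, and the submitters' processing notes name limma with no version. Depth does not apply, and the number of arrays limits the precision.

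Median signal and local background were corrected by normexp (offset 50) and loess-normalized within each array, with control spots at weight 0 and outlier-marked spots left out (80 probe spots on the direct arrays), using limma 3.58.1 in R 4.3.3. Missing spots were not imputed, and 44 tested probes lack a value on a direct array. A probe was tested if 4 or more of a condition's 8 channels were well above background (12780 probes, with 1848 left out). The log2 ratios were fitted with 3 coefficients for the conditions and 1 for the dye, per probe, and p-values were adjusted by Benjamini-Hochberg over all tested probes. The residual degrees of freedom were 12 for the joint fit, 5 for slide 1 and 2 for the direct arrays. The fits were tested on simulated data first.

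The members, the rule for named identifiers and the tests were chosen with earlier results of these data known. That rule takes at most 2 identifiers in each direction, ranked by their smallest log2 ratio over the direct arrays and both probes, among those with both probes past the joint threshold, of 1 sign and well above background on all direct arrays, and saturated on no array. None of the 11 gene lists could be matched, since 0 identifiers have a gene name here. Same-numbered arrays of neighbouring groups had deviations correlated at 0.408 and 0.465 on slide 1 and at -0.544 to 0.244 elsewhere. The main fits did not pair arrays by number and treated all arrays as independent, although the values on slide 1 were not near 0. With same-numbered arrays of slide 1 as a block, the joint count was 257 in place of 658. Alternatives covered background correction, normalization, probe filter, saturated spots, dye effect, array weights, slide, direction and each array left out. Those for slide 1, the direct arrays alone, the route through the other arrays, the spike-in signals and the probes measured in 1 kind of aphid were chosen after seeing the data.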

Additional observations from a re-analysis of the deposited data

Results flagged for a closer look

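Spike-in measures of direct array 3 stood far from those of the other 3 direct arrays: the slope of observed on expected ratio (0.499) and the span of the ratios (3.70 log2 units). Among the named probes, the value of direct array 2 stood apart for contig4095 at its first (0.61) and second probe (0.712). For contig3601, array 4 of EBF over hexane in habituated aphids stood apart at both probes, with 0.874 and 1.08 log2 units. Of 43 groups of 4 values looked at in this way 6 stood apart, where chance gives about 1 in 20 groups, and the probes of 1 name are not independent.

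The difference between the rearings was not the same with EBF and with hexane for 5 named probes, by the interaction term of the joint fit in limma, which 4.77% of all tested probes passed. The term contains the difference with EBF that chose these probes, so it is given as a description. With EBF minus in hexane, it was 1.073 (adjusted p = 0.00679) and 1.065 (adjusted p = 0.00556) for contig438. For contig4095 it was 0.7759 (adjusted p = 0.0142) and 0.7883 (adjusted p = 0.012). For the second probe of contig3601 it was -1.184 (adjusted p = 0.0419).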

How the results depend on the processing

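The joint count of 658 probes moved to 385 with median centring in place of loess (185 higher, 48.1%), 257 with the replicate block on slide 1 (consensus correlation 0.357), 2115 with array weights, 1426 with slide 2 turned (35.7% higher) and 0 with the direct arrays turned (1430 at an unadjusted p under 0.05). It was 137 on slide 1 (5.84% higher) and 0 on the direct arrays with or without a dye effect. Leaving out 1 array gave 50 to 718, the highest without array 4 of rearing in hexane (43.5% higher). The other planned fits gave 443 to 881. The slide 1 count of 137 moved to 207 with median centring, 69 with the block and 0 with the strict filter (all 8 direct channels well above background), and to between 0 and 98 with 1 array left out. The direct arrays alone gave 0 throughout. With the direct arrays turned, both probes reversed for contig438 (-0.313, -0.3213), contig4095 (-0.2011, -0.2117), contig3601 (1.15, 1.167) and contig190 (0.1187, 0.1698), none past the threshold in that fit. No other alternative reversed them, and 21 to 28 of 33 kept each past the threshold. Under the block the limma adjusted p was 0.05 for the first probe of contig438, 0.0555 and 0.0615 for contig3601 and 0.0608 for the first probe of contig190. The share of probes with 1 sign was 14.6% with median centring and 14.9% with the strict filter. It was 18.9% to 49.4% on 3 arrays, where fewer signs have to match, so these are not on the scale of the share on 4. The other-route median of 0.30 was -1.60 with slide 2 turned and 0.06 to 0.48 with 1 array left out. The spike-in span ratio of array 3 to the median of the others was 0.614, and 0.551 with processed signals. Probes measured in 1 kind of aphid numbered 33 to 81 (non-habituated) and 0 to 34 (habituated) with 1 direct array left out. The cause of these changes was not tested.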
